A study of Mus musculus with 2 samples.

Results

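The 30 genes described here encode enzymes of cholesterol and fatty acid synthesis and the proteins that regulate them. They were taken from a list of gene names and not by a measured value, though earlier results of these data were known. Of the 30, 7 act in the mevalonate steps, 11 in the sterol steps, 6 are regulators and 6 act in fatty acid synthesis. They were among 20655 named genes with a probe on both arrays. Expression was measured in LSK cells, the lineage-negative, Sca-1-positive, c-Kit-positive fraction that holds blood stem cells and multipotent progenitors. The bone marrow LSK cells came from wild-type C57BL/6 mice aged 8 weeks that had not been transplanted. The fetal liver LSK cells came from wild-type, untransplanted mice at E14.5, whose strain is not given here. Each group had 1 single-colour Agilent array, so none of the differences could be checked in replicates and no p-value is given. Tissue, age and array slide differed together and cannot be told apart, and whether strain differed as well is not known here.

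Cholesterol is built from acetyl-CoA. The mevalonate steps make isoprenoid units, and the sterol steps join and close them into lanosterol and trim it to cholesterol. The transcription factor encoded by Srebf2 drives these genes when sterols are scarce, and Srebf1 encodes its relative with a larger part in fatty acid synthesis. Scap escorts both precursors to the Golgi for activation, and the Insig proteins hold Scap back when sterols are plentiful. Fatty acids branch from the same acetyl-CoA pool, which Acly supplies from citrate, and the fatty acids are then lengthened and desaturated. Dividing cells need both products for membranes.

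A level is given as log2 of a probe's processed signal relative to the 75th percentile of its own array, and a difference is the level in bone marrow minus that in fetal liver. Each ± gives the error of the difference, from the signal errors that the image software reports, and it was 0.20 for the median member. Among the measured members it ran only from 0.204 to 0.213, so it acts nearly as a fixed limit. It covers technical error only. Levels of different genes come from different probes and are not compared. A gene counted as measured when its probe stood well above background on 1 or both arrays. Of the 30 genes 29 were measured, all of them on both arrays. Scd1, a stearoyl-CoA desaturase, had signals of 9.41 in bone marrow against 1.97 in fetal liver and was not well above background in either.

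Of 11 sterol step genes, 10 were higher in bone marrow LSK cells, against 42.2% of all measured genes, though only 1 reached 2-fold. By more than their technical error, 7 were higher and 1 was lower. All 5 measured fatty acid synthesis genes were lower by more than that error, and 0 reached 2-fold. Passing this error was common: of 82 measured related genes of lipid metabolism, 23 were higher and 26 lower by more than it. The share of all measured genes past it was not computed, so these counts have no background to be read against. Over all measured genes the differences had an SD of 0.88, against a median technical error of 0.20. The sterol feedback gene Insig1 had the highest difference of the 29, at 1.89 ± 0.21, and Fasn, fatty acid synthase, the lowest, at -0.88 ± 0.21. The median of the mevalonate steps was -0.14, of the sterol steps 0.33, of the regulators -0.18 and of the fatty acid genes -0.70, against -0.11 over all 13386 measured genes. As a whole the 29 genes had a median of -0.12. Insig1 and Nsdhl, 2 of 29 (6.90%), were higher in bone marrow by 2-fold or more, against 8.12% of all measured genes. None (0 of 29) was lower by 2-fold or more, against 6.69% of all measured genes. The module as a whole therefore held no larger share of 2-fold differences than the array, and the account that follows concerns its parts. At the smaller limit of 1.5-fold, 4 of 29 were higher (13.8%), against 14.9% of all measured genes, and 4 of 29 were lower (13.8%), against 17.5%. The 4 higher genes were Insig1, Nsdhl, Srebf2 and Cyp51, all of the sterol and regulator groups. The 4 lower genes were Fasn, Elovl6, Acaca and Scd2, all of the fatty acid group.

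**Figure D1:**
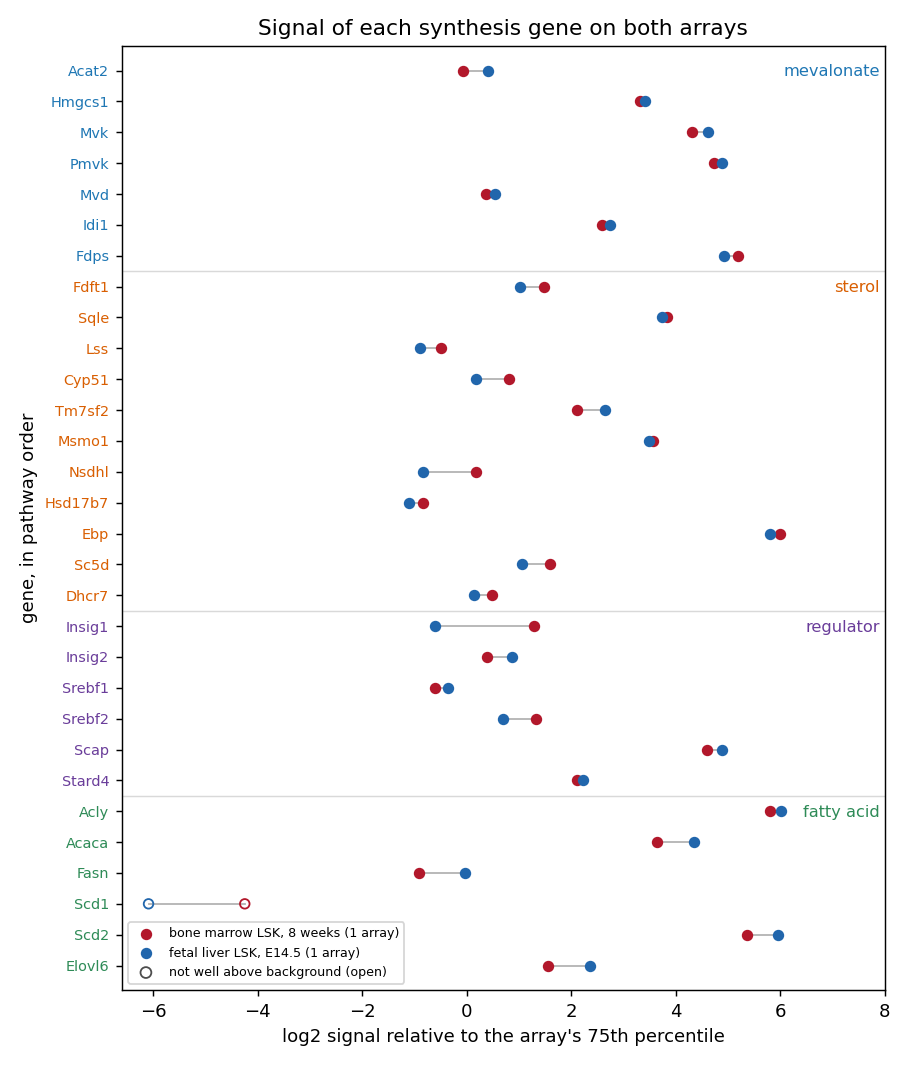
Level of each of the 30 genes in bone marrow LSK (red) and fetal liver LSK (blue), as log2 signal relative to the array's 75th percentile, with genes down the page in pathway order and open circles for signals not well above background. The red point lies to the right of the blue one for 10 of 11 sterol genes and to the left for all 5 measured fatty acid genes.

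The scaling between arrays bears on every sign near 0. Agilent's spike-in RNAs, mixed with the RNA before labelling, gave an alternative scaling that adds 0.33 to each difference and puts the median of all measured genes at 0.23. Under it 22 of the 29 genes were above 0, against 13 under the 75th percentile. The group medians became 0.19 for the mevalonate steps, 0.67 for the sterol steps, 0.15 for the regulators and -0.37 for the fatty acid genes. Of all measured genes past 2-fold, 77.6% were higher in bone marrow under spike-in scaling, against 54.8% under the 75th percentile. Since every gene is shifted alike, positive differences cannot turn under this scaling, and each group keeps its position relative to all genes by construction. The sign of the mevalonate and regulator medians depended on the scaling.

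Mevalonate step genes lay close to the median of all genes. Acat2, a thiolase that joins acetyl-CoA units, was the lowest, with levels of -0.07 in bone marrow against 0.40 in fetal liver (difference -0.47 ± 0.21). Hmgcs1, HMG-CoA synthase, was at 3.31 for bone marrow and 3.41 for fetal liver, and its difference of -0.09 ± 0.20 is within the technical error. The kinases and the decarboxylase that turn mevalonate into the isoprenoid unit came next. Mvk, mevalonate kinase, was at 4.31 in bone marrow and 4.61 in fetal liver. Pmvk, phosphomevalonate kinase, was at 4.74 in bone marrow and 4.88 in fetal liver. Mvd, the decarboxylase, was at 0.36 in bone marrow and 0.54 in fetal liver. These 3 differences, -0.30, -0.14 and -0.18, turned positive under spike-in scaling. Idi1, the isomerase of the isoprenoid unit, was at 2.60 in bone marrow and 2.74 in fetal liver (-0.14 ± 0.20), and it turned positive as well. Fdps, which makes farnesyl pyrophosphate at the branch to sterols and protein prenylation, was the 1 gene of the 7 with a higher level in bone marrow, at 5.20 against 4.93 in fetal liver (0.27 ± 0.20). None of the 7 reached 1.5-fold in either direction. Under spike-in scaling 6 of the 7 were above 0, and Fdps stood at 0.61.

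Sterol step genes were above 0 in 10 of 11 cases, against 42.2% of all measured genes. In 7 of the 10 the difference exceeded its technical error, as it did upward in 23 of the 82 measured related genes. Fdft1, squalene synthase, commits farnesyl units to sterols, and its levels were 1.48 in bone marrow and 1.03 in fetal liver (0.45 ± 0.20). Sqle, squalene epoxidase, a rate-controlling step, was nearly level, at 3.84 in bone marrow and 3.74 in fetal liver (0.10 ± 0.20). Lss, which closes the rings to lanosterol, was at -0.48 in bone marrow and -0.90 in fetal liver (0.41 ± 0.21). Cyp51, the demethylase that acts on lanosterol, was 1.55-fold higher in bone marrow, at levels of 0.81 against 0.18 in fetal liver (0.63 ± 0.21).

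Later sterol steps differed most at Nsdhl. This dehydrogenase takes part in removing methyl groups from the sterol nucleus together with Msmo1 and Hsd17b7. Nsdhl had levels of 0.17 in bone marrow against -0.83 in fetal liver (1.00 ± 0.21), on the 2-fold limit itself, and its dimmer probe gave 1.42. Msmo1, the methylsterol oxidase of the same reaction series, was level at 3.56 in bone marrow and 3.48 in fetal liver (0.08 ± 0.20). Hsd17b7, the ketoreductase, was at -0.84 in bone marrow and -1.11 in fetal liver (0.27 ± 0.21). The differences of these 3 enzymes of the series thus ran from 0.08 to 1.00. Ebp, a sterol isomerase, had levels of 5.99 in bone marrow against 5.80 in fetal liver (0.18 ± 0.20). Sc5d, a sterol desaturase, was at 1.59 in bone marrow and 1.05 in fetal liver (0.55 ± 0.20). Dhcr7, which makes cholesterol from its last precursor on one branch, was at 0.48 in bone marrow and 0.15 in fetal liver (0.33 ± 0.21). The exception was Tm7sf2, a sterol reductase, at 2.11 in bone marrow and 2.65 in fetal liver (-0.54 ± 0.20), with -0.10 by its other probe. Lbr, the lamin B receptor, has the same reductase activity, and it differed by -0.24 by its brighter probe and 0.23 by the other.

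**Figure D2:**
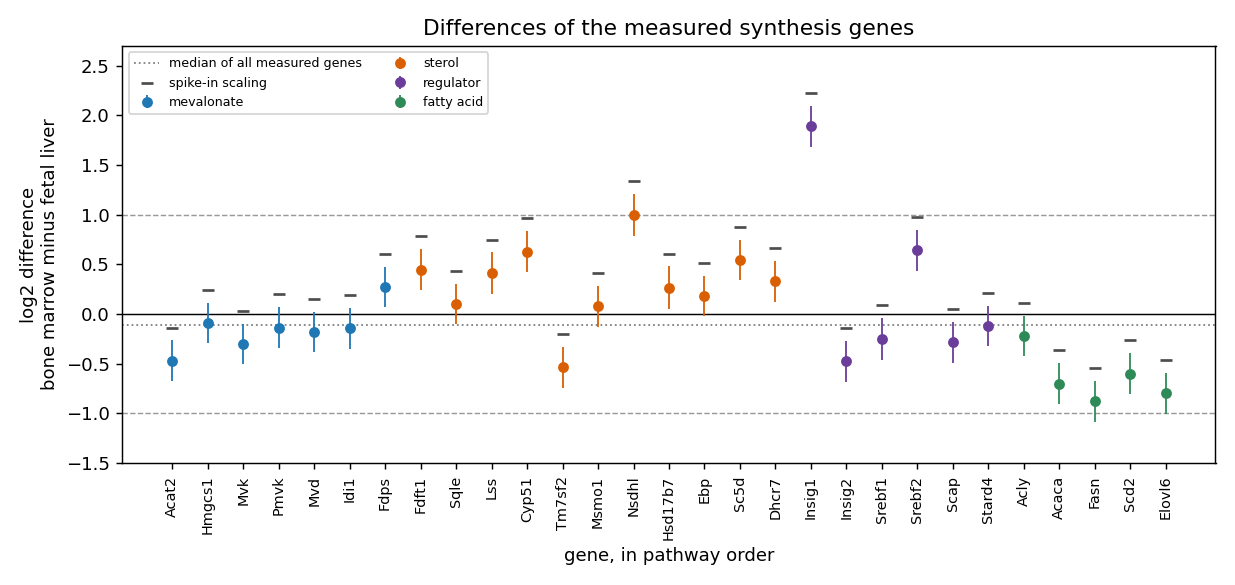
Difference of the 29 measured genes, bone marrow minus fetal liver on the log2 scale, in pathway order, with bars for the technical error of the image software, dashes for the value under spike-in scaling, dashed lines at 2-fold and a dotted line at the median of all measured genes. Insig1 stands at 1.89, 10 of 11 sterol genes lie above 0 and the 5 fatty acid genes lie between -0.88 and -0.22.

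Among the regulators, Insig1 and Srebf2 were higher in bone marrow and the other 4 were below 0 under the 75th percentile scaling. Insig1, which retains Scap in the endoplasmic reticulum and is itself a target of the sterol-sensing factors, had processed signals before scaling of 437 (bone marrow) and 88.3 (fetal liver). The scaled level was 1.29 in bone marrow against -0.60 in fetal liver, or 3.70-fold (1.89 ± 0.21), and 391 of the 13386 measured genes differed by as much or more in that direction. Insig2, its paralogue with the same retention role, was at 0.38 in bone marrow and 0.86 in fetal liver (-0.48 ± 0.21), and its other probe gave -0.11. Srebf2 was at 1.33 in bone marrow and 0.69 in fetal liver, 1.56-fold higher in bone marrow (0.64 ± 0.20), with 1.55 by a dimmer probe. Srebf1 was at -0.62 in bone marrow and -0.37 in fetal liver (-0.25 ± 0.21). For Srebf1 the sign turned under spike-in scaling, to 0.09, while that of Insig2 stayed below 0, at -0.14. Scap was at 4.60 in bone marrow and 4.89 in fetal liver (-0.28 ± 0.20). Stard4, a carrier that moves cholesterol between membranes, was at 2.11 in bone marrow and 2.23 in fetal liver (-0.12 ± 0.20), but its dimmer probe gave 0.58. Scap and Stard4 were above 0 under spike-in scaling, at 0.05 and 0.22.

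Of the 5 measured fatty acid synthesis genes 0 were above 0, against 42.2% of all measured genes, whose median was -0.11. Each of the 5 differences exceeded its technical error, as did 26 of the 82 measured related genes downward. Acly, the citrate lyase that supplies cytosolic acetyl-CoA, was at 5.80 in bone marrow and 6.02 in fetal liver (-0.22 ± 0.20), and it was the 1 gene of the 5 to turn positive under spike-in scaling, at 0.12. Acaca, acetyl-CoA carboxylase, the committed step, was at 3.64 in bone marrow and 4.34 in fetal liver (-0.70 ± 0.20). Fasn was at -0.92 in bone marrow and -0.04 in fetal liver, so its scaled signal in bone marrow was 0.544 of that in fetal liver. Scd2, a desaturase, was at 5.36 in bone marrow and 5.97 in fetal liver (-0.60 ± 0.20). Elovl6, which lengthens the product of Fasn, was at 1.56 in bone marrow and 2.36 in fetal liver (-0.80 ± 0.20). Neither array had a usable signal for the desaturase paralogue Scd1, so the desaturase step rests on Scd2. Differences as low as that of Fasn or lower were found for 1130 of the 13386 measured genes.

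**Figure D3:**
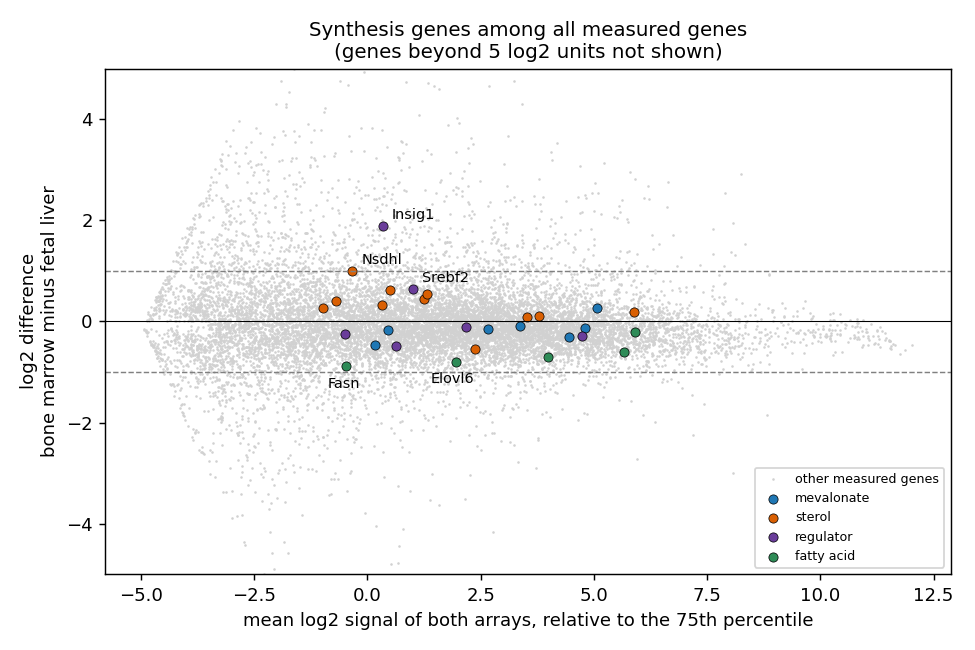
Difference, bone marrow minus fetal liver on the log2 scale, against the mean level of both arrays for all measured genes (grey, 28 beyond 5 log2 units not shown) and for the 29 synthesis genes by group. The synthesis genes lie inside the cloud of all genes, with Insig1 and Nsdhl at or above the upper 2-fold line.

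Of the 40 member probes above background on at least 1 array, 29 gave the values used, by being the brightest of their gene. For the 10 genes with more than 1 such probe, the probes differed by a median of 0.39 on the log2 scale, which is larger than the technical error of 0.20. Srebf2 and Nsdhl were higher in bone marrow by both of their probes. In 2 genes the probes disagreed in sign. The probes of Stard4 gave -0.12 and 0.58. For Acaca the 3 probes gave -0.70, 0.05 and at most -0.93, a bound set because bone marrow was not well above background. The other measured genes rest on 1 probe above background each. They include Insig1, Fasn, Scd2 and Elovl6, and all sterol step genes except Nsdhl, Hsd17b7 and Tm7sf2.

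**Figure D4:**
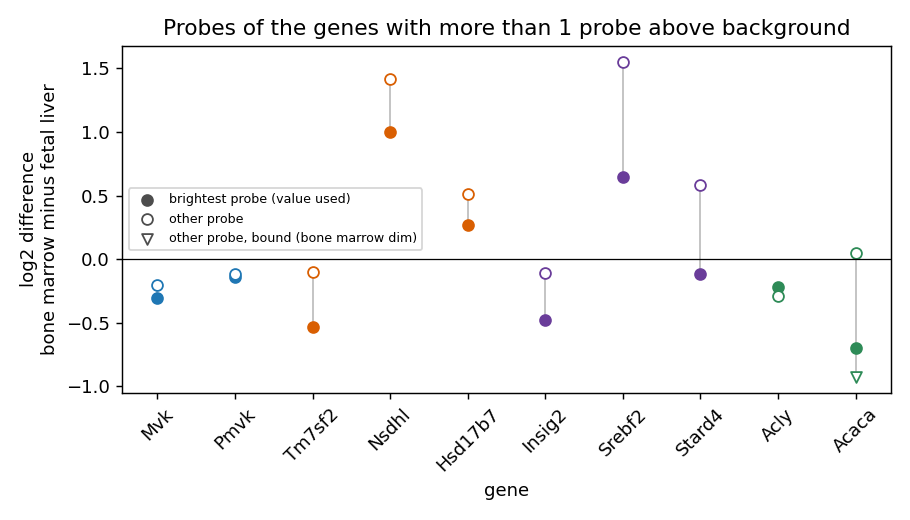
Difference given by each probe of the 10 genes with more than 1 probe above background, bone marrow minus fetal liver on the log2 scale, with the brightest probe filled, the others open and a triangle for a bound. Both probes of Nsdhl and of Srebf2 lie above 0, while those of Stard4 and Acaca lie on both sides of it.

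Promoter sequence was examined because the genes of the pathway share known regulators. RefSeq promoters (build GRCm38.p6, 250 bases before to 50 after the start) were matched for 24 of the 30 genes, with 32 promoters in all. The motifs searched on both strands were a sterol regulatory element, TCACNCCAC, an E-box, CACGTG, which SREBP proteins can also bind, and the CCAAT box of the factor NF-Y, an SREBP partner, CCAAT. The CCAAT box was found in 20 of the 24 genes, against 41.1% of all 27025 genes with a promoter. Counted by promoter, it was found in 21 of the 32 (65.6%), against 37.4% of all 32851 promoters, a smaller contrast. It was present in 9 of 9 sterol step genes, 5 of 6 mevalonate genes, 4 of 5 regulators and 2 of 4 fatty acid genes with a promoter. The E-box was found in 5 of the 24 genes (Insig1, Scap, Hsd17b7, Sc5d and Dhcr7), against 8.09% of all genes. The sterol regulatory element was found in 1, Hmgcs1, against 1.44% of all genes. Tm7sf2, with the lowest difference of the sterol group, has a CCAAT box too, so this motif was present on both sides of 0.

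The promoters of 4 genes are shown, 5′ to 3′ on the gene's strand, with matches in capitals: Insig1 and Nsdhl, which passed 2-fold, Hmgcs1, which has the sterol regulatory element and did not differ beyond its technical error, and Fasn, the lowest. They lie at chr5:28071162-28071461 (plus strand), chrX:72918271-72918570 (plus), chr13:119690101-119690400 (plus) and chr11:120824498-120824797 (minus). ATTGG is the CCAAT box on the other strand. In Fasn a pair of CCAAT matches on opposite strands overlap, and no other matches in these 4 windows do.
Insig1: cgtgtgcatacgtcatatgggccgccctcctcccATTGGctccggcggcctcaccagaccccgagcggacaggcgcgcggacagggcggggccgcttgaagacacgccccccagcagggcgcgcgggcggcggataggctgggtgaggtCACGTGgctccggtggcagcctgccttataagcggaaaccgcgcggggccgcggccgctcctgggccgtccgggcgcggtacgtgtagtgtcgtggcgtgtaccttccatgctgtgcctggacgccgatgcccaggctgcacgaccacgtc
Nsdhl: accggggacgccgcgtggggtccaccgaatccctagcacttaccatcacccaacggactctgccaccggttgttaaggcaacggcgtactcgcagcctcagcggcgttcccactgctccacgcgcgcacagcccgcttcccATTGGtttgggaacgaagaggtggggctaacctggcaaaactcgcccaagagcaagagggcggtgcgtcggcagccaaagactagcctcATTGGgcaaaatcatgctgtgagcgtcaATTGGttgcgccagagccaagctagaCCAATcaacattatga
Hmgcs1: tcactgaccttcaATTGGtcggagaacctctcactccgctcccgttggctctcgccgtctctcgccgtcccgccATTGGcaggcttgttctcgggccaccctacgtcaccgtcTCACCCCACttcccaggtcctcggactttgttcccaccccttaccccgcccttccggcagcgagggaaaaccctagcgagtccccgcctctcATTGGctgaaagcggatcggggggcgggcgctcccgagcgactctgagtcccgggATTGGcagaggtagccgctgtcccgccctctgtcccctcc
Fasn: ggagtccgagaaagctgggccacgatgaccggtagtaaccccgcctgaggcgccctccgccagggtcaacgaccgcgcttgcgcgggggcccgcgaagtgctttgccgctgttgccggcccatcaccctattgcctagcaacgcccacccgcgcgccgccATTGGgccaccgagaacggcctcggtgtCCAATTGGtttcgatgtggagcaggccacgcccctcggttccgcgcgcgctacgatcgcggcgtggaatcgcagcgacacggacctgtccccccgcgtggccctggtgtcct
Insig1 has a single CCAAT box and an E-box that starts 101 bases before the start site, while Nsdhl has 4 CCAAT matches and neither of the other motifs. A match describes letters in the window only, and binding was not measured.

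Other genes of the pathways were read from 4 lists of related genes, of which 82 of 90 were measured, with a median of -0.01. By 2-fold or more, 7 of the 82 (8.54%) were higher in bone marrow and 0 were lower, against the shares of 8.12% and 6.69% given above. The 8 that were not well above background on either array included Idi2, Ch25h, Cyp27a1, Elovl3, Scd4 and Thrsp. The 11 measured genes of the list of other isoprenoid and sterol enzymes had a median of -0.09, against 0.24 under spike-in scaling.

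Genes of sterol sensing, uptake, storage and efflux had a median of 0.17, and 2 of 22 measured genes (9.09%) passed 2-fold upward in bone marrow, against 8.12% of all measured genes. Mylip, a ubiquitin ligase induced by the sterol-sensing LXR factors, was at 1.73 in bone marrow and 0.64 in fetal liver (1.08 ± 0.20). Soat1, which esterifies cholesterol for storage, was at -1.46 in bone marrow and -2.52 in fetal liver (1.07 ± 0.26). The other probe of Mylip, not well above background in fetal liver, gave at least 0.92.

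In the list of other fatty acid and lipid enzymes 3 of 28 measured genes were higher in bone marrow by 2-fold or more, against 8.12% of all measured genes, and 0 were lower by as much. Me1, malic enzyme, which supplies NADPH, had the highest difference, at levels of -1.49 in bone marrow against -3.63 in fetal liver (2.14 ± 0.34), from signals before scaling of 63.7 in bone marrow against 10.9 in fetal liver, while another probe, not well above background in fetal liver, gave at least 1.13 and the third was dim on both arrays. Lpin1, a phosphatidate phosphatase, was at -0.80 in bone marrow and -2.27 in fetal liver (1.47 ± 0.24). Acss2, which makes acetyl-CoA from acetate, was at 2.90 in bone marrow and 1.79 in fetal liver (1.11 ± 0.20), so the acetate route and the Acly route to acetyl-CoA differed in sign under the 75th percentile scaling. Under the spike-in scaling both were above 0. Among fatty acid oxidation genes 1 of 21 (4.76%) was at least 2-fold higher and 0 lower. Cpt1a, which admits fatty acids to the mitochondrion and sets the rate of their oxidation, was at 3.71 in bone marrow against 2.07 in fetal liver, or 3.11-fold (1.64 ± 0.20), and its other probe gave 1.37. Normexp background correction of median signals, with an offset of 50, was an alternative chosen after seeing the data. Under it Lpin1 at 0.68, Me1 at 0.42 and Soat1 at 0.31 were short of 2-fold. Mylip at 0.96 and Nsdhl at 0.88 were short of it as well. The offset draws differences of dim probes toward 0 by construction. The remaining fatty acid oxidation genes lay between -0.48 and 0.80.

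**Figure D5:**
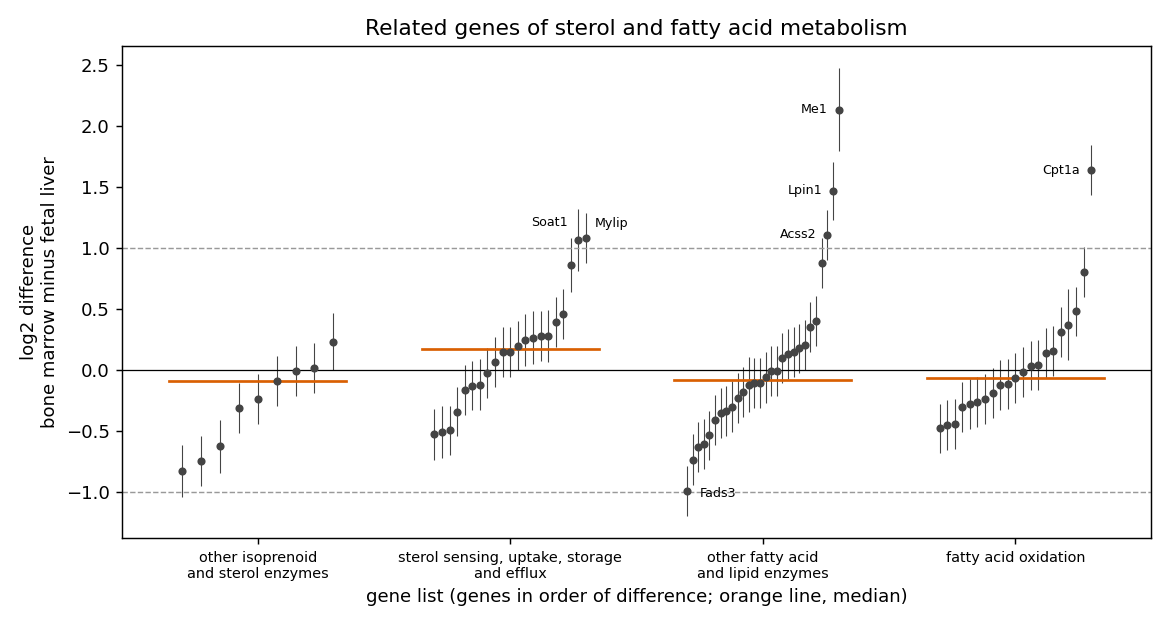
Difference of the measured related genes, bone marrow minus fetal liver on the log2 scale, in 4 lists with genes in order of difference, bars for the technical error, an orange line at the median of each whole list and dashed lines at 2-fold. A few points of the first pair of lists are not drawn. Medians lie between -0.09 and 0.17, and the 6 points above the upper 2-fold line are Me1, Cpt1a, Lpin1, Acss2, Mylip and Soat1.

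In bone marrow 47.4% of probes were well above background, and in fetal liver 46.4%. Both sort markers were detected: Kit was at 4.51 on each array, and Ly6a, the Sca-1 gene, was higher in bone marrow by 2.28. Of 10 hepatocyte markers, 4 (Alb, Apoa1, Ttr and Ahsg) were not well above background on either array, and of the 6 measured, 4 had positive differences and 2 negative ones. Trf and Afp differed by 1.27 and 1.26, Fgb by at least 2.02, Apob by at least 0.65, Serpina1a by -0.75 and Apoa2 by -0.24. The summed scaled signal of the hepatocyte markers was 83.6 in bone marrow and 38.4 in fetal liver, most of it from Trf. Erythroid markers were lower in bone marrow in 6 of 7 measured genes, with a summed scaled signal of 127 in bone marrow against 833 in fetal liver, most of it from Hbb-bt. Of 9 neutrophil markers 6 (66.7%) were past 2-fold upward in bone marrow, against 8.12% of all measured genes. The difference was 4.67 for Chil3. The other 3 were Ltf (0.31), S100a9 (0.26) and S100a8 (-0.15). Summed scaled signals of the neutrophil markers were 138 in bone marrow against 111 in fetal liver, most of each sum from S100a9 and S100a8. Macrophage markers were summed at 28.2 in bone marrow and 34.3 in fetal liver, nearly all of it from Csf1r (-0.29). Of the 6 measured macrophage markers, 3 had positive differences and 3 negative ones. T and NK cell markers were summed at 95.6 in bone marrow and 33.8 in fetal liver, most of each sum from Nkg7 (2.44) and Lck (0.75). Of these 6 markers, 4 had positive differences, while Cd3e (-0.52) and Cd3g (at most -0.81) had negative ones. Of 6 B cell markers only Cd79b was measured (-0.40), with the list summed at 22.6 in bone marrow and 29.8 in fetal liver. In a bulk population, fewer cells of a type and less RNA per cell cannot be told apart, and the part of these cell types in the sterol and fatty acid values was not tested.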

How the data were processed

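Per the labels' protocols, LSK cells were sorted by flow cytometry and 20 ng of total RNA with spike-in controls was amplified and labelled with Cy3. The deposited intensity of each spot, with its error and flags, comes per the file headers from Agilent Feature Extraction 10.7.1.1, background-subtracted and not scaled between arrays. The authors' deposited value table holds a linear ratio, the processed signal divided by 178.6 for bone marrow and 133.9 for fetal liver. It was used as an alternative. Its scale is linear and not centred by gene, and its column medians were 0.0589 (bone marrow) and 0.0604 (fetal liver).

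Control spots and outlier spots (137 in bone marrow, 122 in fetal liver) were left out, repeated spots were averaged, and log2 signals were set against each array's 75th percentile (178.9 for bone marrow, 134.0 for fetal liver). No spot was saturated. Of 55664 probes 27226 were named through the accession in the reference gene table (GRCm38.p6, names only, since the array design uses mm9). A gene took its probe with the highest mean signal. A probe dim on 1 array gives a bound, set against the lowest signal well above background (12.4 in bone marrow, 9.82 in fetal liver). Since each group has a single array, nothing was tested, and called means at least 2-fold. Repeated spots of 224 probes had a median SD of 0.09 per log2 difference. The number of arrays limits the precision. Spike-in scaling used 8 of 10 controls. The computations used Python 3.11.15, limma 3.58.1 for normexp, and code checked on made-up signals of known fold.

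The genes and lists were chosen with earlier results of these data known. The text names all 30 members, related genes at least 2-fold different and the leading markers, and results of some related genes are not reported here. Others, such as Lbr, were named after their values were seen.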

Additional observations from a re-analysis of the deposited data

How the results depend on the processing

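Results were recomputed under 12 alternatives. Spike-in scaling gave medians of 0.22 for all members, 0.19 for mevalonate, 0.67 for sterol, 0.15 for regulator and -0.37 for fatty acid genes, 0.24 for other isoprenoid and sterol enzymes, 0.51 for sterol sensing, 0.25 for other fatty acid enzymes and 0.27 for oxidation genes, with 11 related genes at least 2-fold higher in bone marrow. It raises every difference by 0.33 by construction. Of all genes it put 1750 past 2-fold higher and 505 lower in bone marrow, against 1087 and 896 with the 75th percentile, 606 and 380 with normexp, 1646 and 1676 without a filter on dim probes, and 1992 and 2343 at 1.5-fold. Members at least 2-fold higher numbered 1 under quantile normalization, scaling to the median of probes above background, normexp and with outlier spots kept, since Nsdhl lies on the limit (0.998, 0.996, 0.88 and 0.998). They numbered 3 under the mean over probes and the dimmest probe, where Srebf2 passes the limit (1.55 by the dimmest), and 3 without the filter on dim probes, which adds Scd1. Normexp, chosen after seeing that the files hold no mean signal and run on median signals, left 3 related genes higher. Under it Mylip was at 0.96, Lpin1 at 0.68, Me1 at 0.42 and Soat1 at 0.31. Its offset of 50 draws differences of dim probes toward 0 by construction. The planned normexp on mean signals was not run. The dimmest probe of each gene gave 0.24 for the regulator median and 1 related gene lower. With 1.5-fold as the limit, 4 members were higher and 4 lower, and 11 related genes were higher and 7 lower. Of 418 single-gene values 64 moved by more than their technical error and 15 differed in sign, 9 of them under spike-in scaling, with 0 of these among genes past 2-fold. Insig1 ranged from 1.44 to 2.22. Fasn ranged from -0.88 to -0.54, and under normexp, at -0.56, it was no longer the lowest member, with Elovl6 at -0.62. Dim signals limit Me1, Soat1 and Lpin1. No paired analysis was possible because each group has 1 array.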
